A study of Mus musculus with 2 samples.

Results

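Voltage-gated calcium channels open when a neuron depolarizes and let calcium in. The pore is formed by 1 large alpha1 subunit, which sets the type of current, and auxiliary alpha2delta and beta subunits carry the pore to the membrane and tune it. P/Q-type and N-type pores trigger transmitter release at presynaptic terminals, L-type pores couple activity to gene expression and shape firing in the soma and dendrites, R-type pores act in dendrites, spines and terminals, and T-type pores open near rest and feed burst firing. In the olfactory bulb both partners of the reciprocal synapse, the dendrites of mitral and tufted cells and those of the GABAergic granule cells, release transmitter in response to calcium.

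This account covers 10 subunit genes, taken by symbol out of 31055 features in the tables: the 8 pore genes Cacna1a, Cacna1b, Cacna1c, Cacna1d, Cacna1e, Cacna1g, Cacna1h and Cacna1i, and the alpha2delta genes Cacna2d1 and Cacna2d3. All 10 were found in both tables. Their values were read in single nuclei of the mouse olfactory bulb, sorted after retroAAV-CAG-H2B-GFP, a virus taken up by axon endings that carries a ubiquitous promoter and a nuclear green reporter, had been injected into the anterior olfactory nucleus (AON) or the posterior piriform cortex (pPCx). Both libraries came from adult animals of the strain the labels give as WT. There was 1 library for each injection site, so the differences below are between 2 libraries, no test between sites was possible, and the intervals given cover counting error only.

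Nuclei with at least 1000 genes were kept, 102 of 188 in the AON library and 63 of 74 in the pPCx library, and the libraries shared 0 barcodes. A nucleus was called a projection neuron (a mitral or tufted cell by its markers) when its UMIs (unique molecular identifiers, each 1 counted RNA molecule) of Slc17a7, Slc17a6, Tbx21 and Cdhr1 exceeded those of Gad1, Gad2 and Slc32a1. It was called GABAergic when the reverse held with at least 3 UMIs of the latter. The rule found 25 projection neurons, 47 GABAergic nuclei and 30 remaining nuclei in the AON library, and 59, 2 and 2 in the pPCx library. Markers that the rule did not use (Tbr1, Eomes, Thy1, Reln and Nrn1) summed to 2741 CPM (UMIs of a gene per 1000000 UMIs of the class) in AON and to 2756 CPM in pPCx projection neurons, against 63.7 CPM in AON GABAergic nuclei. Reln supplied 2536 CPM and 2636 CPM of these sums, Eomes gave 62.6 CPM and 52.4 CPM against 0.787 CPM, and Thy1 did not set pPCx projection neurons (19.8 CPM) apart from AON GABAergic nuclei (19.7 CPM). Of the GABAergic markers that the rule did not use, Meis2 stood at 3671 CPM in AON GABAergic nuclei, against 30.4 CPM in AON and 8.59 CPM in pPCx projection neurons. Dlx6os1 stood at 638 CPM there, with 2 and 0 UMIs in the projection neurons. Of the 30 remaining AON nuclei, 18 carried astrocyte markers, 9 carried oligodendrocyte markers and 3 stayed unnamed.

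The AON projection neurons were uneven. Their depth ran from 3291 to 274993 UMIs (median 38129), the deepest nucleus held 24.6% of the class total, and 7 of the 25 were shallower than every pPCx projection neuron, whose depth ran from 8767 to 167296 UMIs (median 34306). In 8 AON projection neurons the call rested on 1 or 2 excitatory marker UMIs, and in 6 the astrocyte and oligodendrocyte marker UMIs outnumbered the excitatory ones, against 1 and 4 of the pPCx projection neurons. The astrocyte list summed to 207 CPM in AON and 204 CPM in pPCx projection neurons, but in the pPCx nearly all of it, 465 UMIs, was Slc1a2. The other astrocyte genes were counted more in the AON, with 51 and 4 UMIs of Slc1a3, 20 and 3 of Aqp4, 10 and 4 of Gja1 and 2 and 0 of Gfap. The oligodendrocyte list summed to 109 CPM and 57.1 CPM, with 1 and 2 of its 5 genes at 0. Of the 3 precursor markers of that lineage, Vcan alone was counted in pPCx projection neurons, 596 times, and the other 2 were at 0. The microglial list summed to 80.5 CPM in AON and 101 CPM in pPCx projection neurons, the endothelial list to 10.7 CPM and 19.8 CPM, and a list of cortical glutamatergic genes to 9.84 CPM and 23.2 CPM. Without the projection neurons whose glial marker UMIs outnumbered the excitatory ones, the AON to pPCx log2 ratio came to -2.38 for Cacna1e, -1.01 for Cacna1c and 1.20 for Cacna2d3, close to the values given below. The part of glial RNA in the nuclei that stayed was not tested. Xist, made from the inactive X chromosome, gave 0 UMIs in AON and 1744 in pPCx projection neurons, and the Y-linked Eif2s3y gave 139 and 0, so the injection site, the sex of the animal and the library cannot be told apart. Reporter RNA (eGFP) was counted 1 time in each of these classes, so it does not mark the sorted nuclei.

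The stretches of promoter that the table supplied with the reference holds are shown for 3 members with 1 listed start each: Cacna1e and Cacna2d3, which differed between injection sites, and Cacna1i, which differed between GABAergic nuclei and projection neurons. Of the 10 members, 7 had an entry. The sequences are the 250 bases before the RefSeq start, read 5′ to 3′ on the gene's strand, in build GRCm38.p6. Capitals mark CCCNNGGG, the core that factors of the Ebf family recognize, searched on both strands together with TAATTA (homeodomain factors of the Dlx kind) and GGTGTGA (T-box factors such as Tbr1), none of which overlaps another here. Cacna1e is at chr1:154725921-154726170 on the minus strand, Cacna2d3 at chr14:29721865-29722114 on the minus strand and Cacna1i at chr15:80286988-80287237 on the plus strand.
Cacna1e: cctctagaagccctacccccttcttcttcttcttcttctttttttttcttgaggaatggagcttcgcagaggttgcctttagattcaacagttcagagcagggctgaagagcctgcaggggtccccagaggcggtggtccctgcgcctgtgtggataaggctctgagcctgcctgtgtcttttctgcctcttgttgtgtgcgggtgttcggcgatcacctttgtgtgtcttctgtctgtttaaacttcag
Cacna2d3: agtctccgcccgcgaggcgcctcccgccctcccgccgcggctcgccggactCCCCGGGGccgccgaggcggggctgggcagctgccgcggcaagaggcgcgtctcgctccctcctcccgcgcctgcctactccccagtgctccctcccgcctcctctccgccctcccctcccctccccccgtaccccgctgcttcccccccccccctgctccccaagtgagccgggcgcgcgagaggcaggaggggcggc
Cacna1i: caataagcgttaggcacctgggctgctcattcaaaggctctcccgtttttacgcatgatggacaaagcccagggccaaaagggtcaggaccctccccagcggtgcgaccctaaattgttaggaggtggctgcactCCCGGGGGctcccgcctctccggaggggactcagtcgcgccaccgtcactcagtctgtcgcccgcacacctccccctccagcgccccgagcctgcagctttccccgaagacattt

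The Cacna2d3 window holds CCCNNGGG once, 199 bases before the start, and the Cacna1i window once, 115 bases before it. The Cacna1e window holds none of the 3 motifs. Over the 10 windows of the 7 members, CCCNNGGG was found in 3, of Cacna1b, Cacna1i and Cacna2d3, GGTGTGA in 1, of Cacna1b, and TAATTA in 0. Of 32851 promoters of this length in the table, 11.8% hold CCCNNGGG, 4.84% hold TAATTA and 3.33% hold GGTGTGA. The windows also differ in composition: 80% of the bases are G or C for Cacna2d3, 62.4% for Cacna1i and 52% for Cacna1e, against a median of 52.4% over the table. The listed Cacna1e start lies 158.581 kb inside the Cacna1e gene of GENCODE M21, so the window is not the upstream end of the longest annotated transcript. A match describes the letters and not a bound site.

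Projection neurons of both libraries and GABAergic nuclei of the AON library held the pore genes in different proportions. To compare levels between genes, each CPM was divided by the length of the gene, since long genes with long introns yield more nuclear RNA. On that scale P/Q-type Cacna1a led in AON projection neurons (399 CPM per 100 kb, 49.1% of the 8 pore genes) and in pPCx projection neurons (308 CPM per 100 kb, 34.7%). In AON GABAergic nuclei L-type Cacna1c led with 490 CPM per 100 kb (34.1%), followed by L-type Cacna1d (18.6%), and Cacna1a made up 10.3%. In pPCx projection neurons R-type Cacna1e was second at 23.6%, whereas in AON projection neurons it made up 4.81%. Without division by length Cacna1e stood above Cacna1a in pPCx projection neurons, at 1035 CPM against 776 CPM. N-type Cacna1b was close in share in the projection neurons of both libraries, 17.6% (AON) and 18.4% (pPCx), and 4.65% in AON GABAergic nuclei. Summed on the length scale, the 2 pPCx GABAergic nuclei did not share the AON GABAergic order. In that sum Cacna1a led at 33.1%, before Cacna1d at 19.2%, Cacna1c at 17.8% and Cacna1b at 13.6%. The deeper of the 2 held 81.9% of their UMIs, and the other had 40 UMIs of Cacna1c and 13 of Cacna1a. Without division by length Cacna1c led in the 2 as well, at 1089 CPM against 872 CPM for Cacna1d and 838 CPM for Cacna1a. Whether reads within introns were counted is not given in the sources used here, so the length scale is an approximation.

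**Figure D1:**
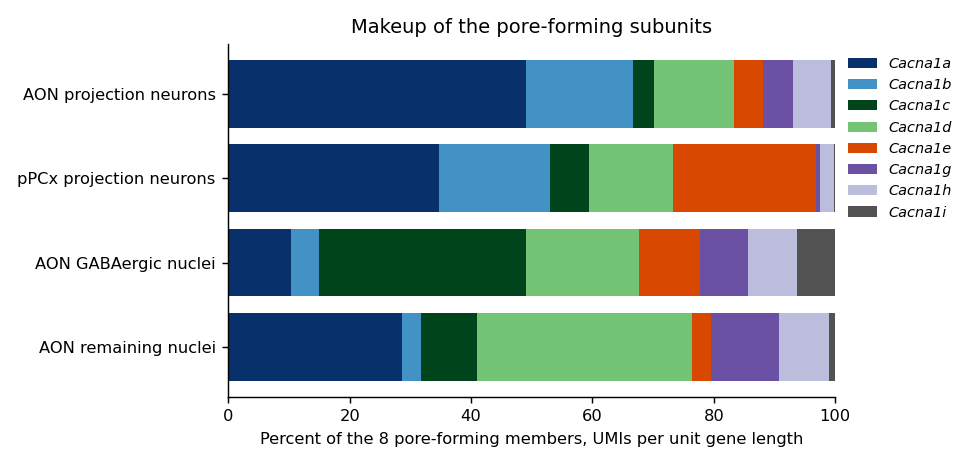
Makeup of the 8 pore-forming members in 4 classes of nuclei. Each bar divides the UMIs per unit gene length of 1 class into percent by gene. Cacna1a takes 49.1% of the bar in AON and 34.7% in pPCx projection neurons, and Cacna1c takes 34.1% in AON GABAergic nuclei.

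Summed over the 10 members, AON GABAergic nuclei held 7505 CPM (95% Poisson interval 7355 to 7657), pPCx projection neurons 4284 CPM (4200.5 to 4369), AON projection neurons 3536 CPM (3426 to 3648) and AON remaining nuclei 930 CPM (845 to 1020.1). The 2 pPCx GABAergic nuclei held 3855 CPM (3373 to 4387), not above the pPCx projection neurons. These totals are levels relative to all RNA of a class, and fewer molecules of a gene cannot be told apart from more of other RNA. Most of the gap between AON GABAergic nuclei and projection neurons lay in the L-type pair. That pair gave 4191 CPM in AON GABAergic nuclei against 653 CPM in AON and 902 CPM in pPCx projection neurons. The presynaptic and R-type genes Cacna1a, Cacna1b and Cacna1e together gave 1191 CPM in AON GABAergic nuclei, 1427 CPM in AON and 2071 CPM in pPCx projection neurons. The T-type genes together gave 243 CPM in AON GABAergic nuclei, 62.6 CPM in AON and 17.6 CPM in pPCx projection neurons.

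**Figure D2:**
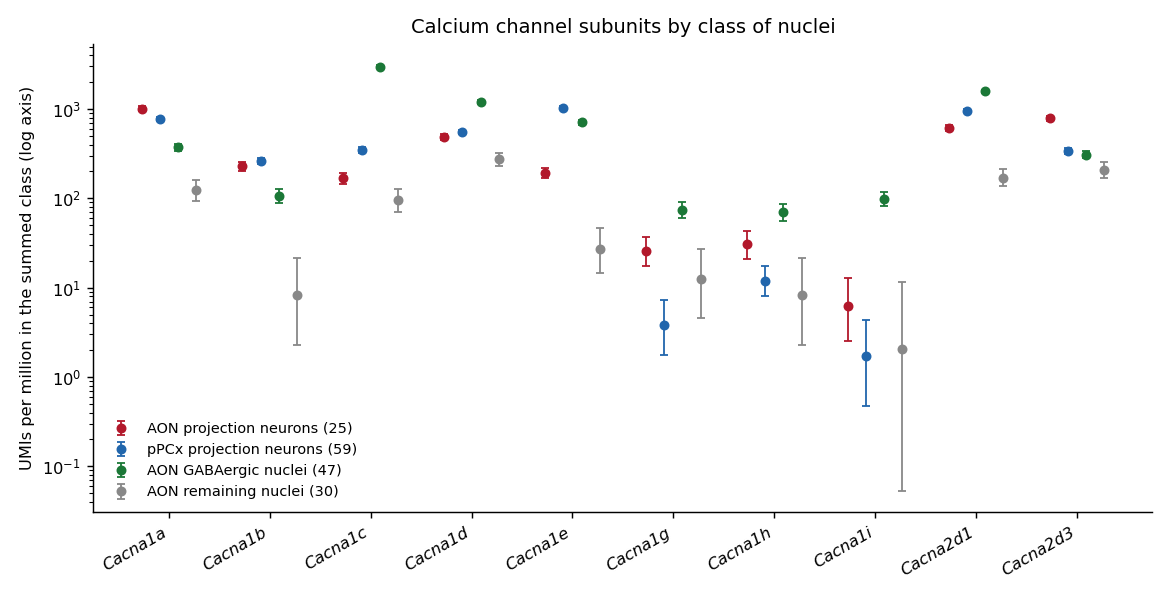
Level of each member in 4 classes of nuclei, in CPM of the summed class on a log axis, with exact 95% Poisson intervals (counting error only) and the number of nuclei in the legend. Cacna1c stands at 2985 CPM in AON GABAergic nuclei against 167 CPM and 347 CPM in the projection neurons, and Cacna1e at 1035 CPM in pPCx against 193 CPM in AON projection neurons.

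The first comparison set the projection neurons labelled from the AON against those labelled from the pPCx. R-type Cacna1e and L-type Cacna1c were lower in the AON library, T-type Cacna1g and Cacna1h and the auxiliary Cacna2d3 were higher, and the release-coupled Cacna1a and Cacna1b differed by less than 2-fold. With a member counted as different when it had at least 10 UMIs over both sums and differed 2-fold or more, 4 of 10 were higher in AON and 2 of 10 lower. Without the deepest AON nucleus Cacna1h and Cacna2d3 fell below 2-fold and 2 of 10 were higher, of which Cacna1i rests on 7 and 4 UMIs. Over 13677 genes measured in the same way, 8.51% were that much higher and 12.4% that much lower. The median log2 ratio of the members was 0.09, and that of all measured genes was -0.06.

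Cacna1e, which carries the R-type current, showed the largest difference downward. It was counted 216 times in AON projection neurons, a level of 193 CPM, and 2409 times in those of the pPCx, a level of 1035 CPM. The pPCx level was 5.35-fold higher (95% interval 4.66 to 6.18). In single nuclei the pPCx values ran from 0 to 2323 CPM with a median of 1142 CPM, and the AON values from 0 to 1313 CPM with a median of 34.7 CPM, so the ranges overlapped. Among the 18 AON projection neurons at least as deep as the shallowest pPCx one (8767 UMIs), 17 lay below the pPCx median. After every nucleus was thinned to 5000 UMIs, a UMI of Cacna1e was expected in 42.1% of AON and 95.9% of pPCx projection neurons (56% and 98.3% without thinning), and in 10.01% of astrocyte-marker nuclei.

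Cacna1c, the main L-type pore gene of the brain, stood at 167 CPM (187 UMIs) in AON and 347 CPM (808 UMIs) in pPCx projection neurons, 2.07-fold higher in the pPCx (1.77 to 2.44). The medians over nuclei were 99.3 CPM and 340 CPM, and 17 of the 18 deeper AON nuclei lay below the pPCx median. This difference shrank to a log2 ratio of -0.18 when every nucleus had equal weight. That mean included 1 shallow AON nucleus with 4137 CPM, 22 UMIs of 5318, which was called a projection neuron on 2 excitatory marker UMIs and 0 GABAergic ones. Without that nucleus the AON mean over nuclei was 158 CPM, and with it 317 CPM, against 359 CPM in the pPCx. The other L-type gene, Cacna1d, was nearly level, at 486 CPM in AON and 555 CPM in pPCx projection neurons (1.14-fold higher in the pPCx, 1.03 to 1.26).

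Cacna2d3, an alpha2delta subunit, went the other way. It gave 784 CPM (876 UMIs) in AON and 340 CPM (792 UMIs) in pPCx projection neurons, 2.30-fold higher in the AON (2.09 to 2.54). The deepest AON nucleus supplied 43.4% of those UMIs, and without it the log2 ratio fell from 1.20 to 0.79, below 2-fold. The direction did not rest on that nucleus: among the 18 deeper AON nuclei, 17 lay above the pPCx median of 203 CPM. Cacna2d1, the subunit bound by gabapentin, was lower in the AON, at 609 CPM against 954 CPM, a 1.57-fold difference (1.44 to 1.71).

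The T-type genes were sparse. Cacna1g was counted 29 times in 8 of 25 AON projection neurons (26.0 CPM) and 9 times in 8 of 59 pPCx projection neurons (3.87 CPM), 6.71-fold higher in the AON with a wide interval (3.09 to 16.1). With every nucleus weighted equally its log2 ratio was 1.63 in place of 2.69. Cacna1h was counted 34 times in 7 AON nuclei (30.4 CPM) and 28 times in 8 pPCx nuclei (12.03 CPM), 2.53-fold higher (1.49 to 4.33), and without the deepest AON nucleus, which held 44.1% of the AON UMIs, its log2 ratio was 0.92. Cacna1i gave 7 and 4 UMIs, and the interval of its ratio, 0.927 to 17.0, included equality. Thinned to 5000 UMIs, Cacna1g was expected in 9.41% of AON and 2.86% of pPCx projection neurons, against 2.50% of astrocyte-marker nuclei. For Cacna1h the shares were 7.34%, 3.02% and 2.92%, and for Cacna1i 2.66%, 0.81% and 2.50%. In oligodendrocyte-marker nuclei 5.31% were expected for Cacna1g and 10.7% for Cacna1h, the latter from 1 nucleus. Astrocyte-marker nuclei had a median depth of 14348 UMIs. Cacna1i had 0 UMIs in the 9 oligodendrocyte-marker nuclei, and the astrocyte-marker shares of Cacna1g and Cacna1i rest on 1 UMI each. The shares of Cacna1i in both classes and of Cacna1g in the pPCx were near or below the astrocyte-marker ones and were read as not distinct from background at this depth. The Cacna1h UMIs of the pPCx lay in 1 group of nuclei, described further on.

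Cacna1a and Cacna1b, the pore genes of fast transmitter release, stayed within 2-fold. Cacna1a gave 1006 CPM (1124 UMIs, 22 of 25 nuclei) in AON and 776 CPM (1806 UMIs, 59 of 59 nuclei) in pPCx projection neurons, 1.30-fold higher in the AON (1.20 to 1.40). For Cacna1b the values were 228 CPM and 260 CPM, 1.14-fold higher in the pPCx with an interval that included equality (0.984 to 1.33).

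**Figure D3:**
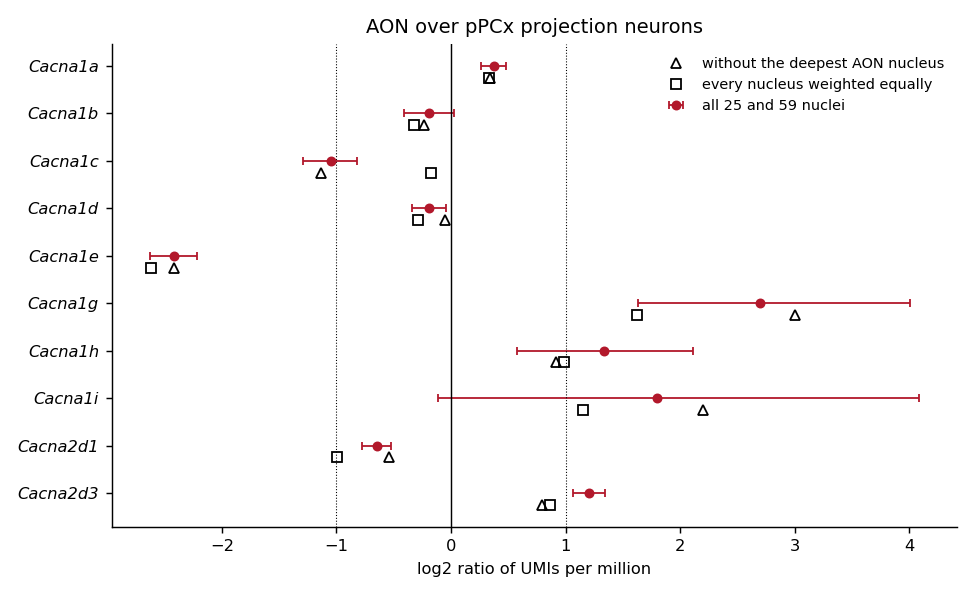
Log2 ratio of AON over pPCx projection neurons for each member, with the 95% counting interval (red). Triangles leave out the deepest AON nucleus and squares give every nucleus equal weight, and the dotted lines mark 2-fold. Cacna1e lies between -2.62 and -2.41 under each, Cacna1c moves to -0.18 with equal weights, and Cacna2d3 moves from 1.20 to 0.79 without the deepest nucleus.

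The second comparison set projection neurons against GABAergic nuclei. Within the AON library 3 of 10 members were at least 2-fold higher in projection neurons (background 16.5% of 12272 genes) and 7 of 10 at least 2-fold lower (background 16.8%), with a median log2 ratio of -1.34 against -0.05 over all genes. The higher ones were Cacna1a, Cacna1b and Cacna2d3, and the lower ones were both L-type genes, R-type Cacna1e, the 3 T-type genes and Cacna2d1. For pPCx projection neurons against the same GABAergic nuclei, which differ in library as well as class, 2 of 10 were higher (background 19.6% of 13938 genes) and 5 of 10 lower (background 14.8%), with a median of -0.92 against 0.06. Both ratios share their denominator, so their likeness is not a repeat of the measurement.

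Cacna1c had the largest ratio of the members between projection neurons and GABAergic nuclei within the AON library. AON GABAergic nuclei held 3795 UMIs, 2985 CPM, with a median over nuclei of 2921 CPM, the lowest nucleus at 0 and the highest at 6691 CPM. The level was 17.8-fold that of AON projection neurons (15.4 to 20.8) and 8.60-fold that of pPCx projection neurons (7.97 to 9.29). Cacna1d was 2.48-fold higher in AON GABAergic nuclei than in AON projection neurons (2.25 to 2.74) and 2.17-fold higher than in pPCx projection neurons (2.02 to 2.34). These L-type genes were seen in nearly every GABAergic nucleus, Cacna1c in 45 of 47 and Cacna1d in 46 of 47.

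All 3 T-type genes were highest in AON GABAergic nuclei, at 73.9 CPM for Cacna1g, 70.0 CPM for Cacna1h and 99.1 CPM for Cacna1i. A UMI of at least 1 of them was found in 45 of 47 GABAergic nuclei, and after thinning to 5000 UMIs it was expected in 65.5%, against 18.2% of AON and 6.69% of pPCx projection neurons. Cacna1i was 15.8-fold above AON projection neurons (7.46 to 40.2), whose own count was 7 UMIs. Cacna1g was 2.85-fold higher (1.86 to 4.48) and Cacna1h 2.30-fold higher (1.53 to 3.52) than in AON projection neurons.

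Cacna1e lay on different sides of the GABAergic nuclei in the projection neurons of the 2 libraries. AON GABAergic nuclei held 713 CPM of it, 3.69-fold more than AON projection neurons (3.18 to 4.30), whereas pPCx projection neurons held 1.45-fold more than those GABAergic nuclei (1.34 to 1.57). Cacna2d1 was highest in AON GABAergic nuclei, at 1571 CPM in 47 of 47 nuclei, and Cacna2d3 stood at 309 CPM there, 2.54-fold below AON projection neurons (2.25 to 2.86) and not distinct from pPCx projection neurons (ratio 1.10, interval 0.974 to 1.24). Cacna1a was 2.70-fold higher in AON (2.43 to 3.02) and 2.08-fold higher in pPCx projection neurons (1.88 to 2.31) than in AON GABAergic nuclei. Cacna1b was 2.15-fold (1.74 to 2.67) and 2.45-fold (2.03 to 2.98) higher. Within the pPCx library, against its 2 GABAergic nuclei, the ratio was 0.926 for Cacna1a (0.699 to 1.25) and 1.19 for Cacna1b (0.693 to 2.26). Both intervals included equality, with 50 and 13 UMIs in those 2 nuclei. Cacna1c was 3.14-fold lower in pPCx projection neurons than in them (2.40 to 4.05).

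**Figure D4:**
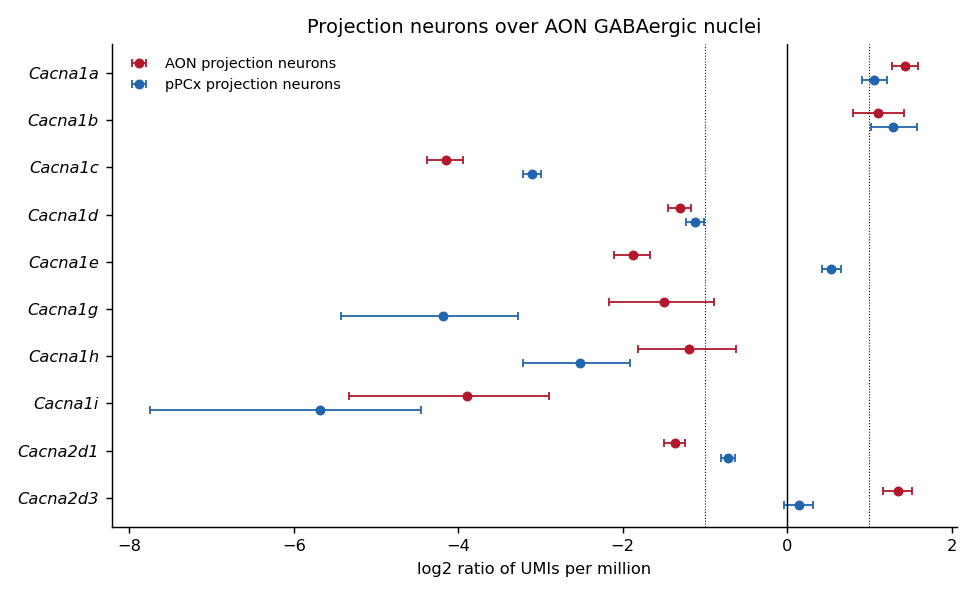
Log2 ratio of projection neurons over AON GABAergic nuclei for each member, AON projection neurons in red and pPCx projection neurons in blue, with 95% counting intervals and dotted lines at 2-fold. Cacna1c lies at -4.15 and -3.10, and Cacna1e lies at -1.88 for the AON and 0.54 for the pPCx.

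Against the 30 remaining AON nuclei, mostly glial by their markers, most members were higher. The GABAergic marker Meis2 stood at 690 CPM in the remaining nuclei and 863 CPM in the astrocyte-marker ones, above the 30.4 CPM of AON projection neurons. In AON projection neurons 6 of 9 measured members were at least 2-fold higher (background 18.5% of 11312 genes) and 0 lower (background 25.2%). In pPCx projection neurons 6 of 9 were higher (background 21.6% of 13485 genes) and 1 lower, Cacna1g with 9 and 6 UMIs (background 22.9%). Cacna1i had too few UMIs to be measured. N-type Cacna1b had the largest ratio for AON projection neurons, with 4 UMIs (8.34 CPM) in the remaining nuclei, 27.4-fold below AON projection neurons (10.6 to 101). In AON projection neurons the log2 ratios of Cacna1c (0.79), Cacna1d (0.83) and Cacna1g (0.96) were below 2-fold. Cacna1d stood at 273 CPM in the remaining nuclei and at 316 CPM in the 18 astrocyte-marker nuclei, of which 15 had a UMI.

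The alpha2delta genes were divided between the glial groups. Cacna2d1 gave 375 CPM in the 9 oligodendrocyte-marker nuclei, with a UMI in 8 of them, and 44.1 CPM in astrocyte-marker nuclei, with a UMI in 5 of 18. For Cacna2d3 the levels were 157 CPM and 246 CPM, with a UMI in 8 of 9 and in 17 of 18. Cacna1a gave 27.2 CPM and 165 CPM in the same groups. Rims1, a neuronal active zone gene with 4648 CPM in AON projection neurons, stood at 20.8 CPM in the remaining nuclei.

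The other subunits of the family and the proteins that bind or place the channels were counted as lists. Of the 10 other subunits, 8 were measured between AON and pPCx projection neurons, and 2 were at least 2-fold higher in the AON and 0 lower (background 8.51% and 12.4%). Those 2 were Cacna2d4 (55.5 CPM against 20.2 CPM) and Cacna2d2 (12.5 CPM against 3.44 CPM, 14 UMIs in 3 nuclei and 8 in 3). The deepest AON nucleus held 36 of the 62 Cacna2d4 UMIs, and without it the level was 30.9 CPM, a log2 ratio of 0.62 that misses 2-fold. The beta subunit Cacnb4, which escorts pores to the membrane, was the most counted of the list, at 2453 CPM in AON and 2210 CPM in pPCx projection neurons and 547 CPM in AON GABAergic nuclei, a 4.49-fold difference within the AON library (4.13 to 4.88). Cacnb3 went the other way, at 9.84 CPM in AON projection neurons and 37.8 CPM in AON GABAergic nuclei (3.84-fold, 1.96 to 8.19). Cacnb2 was similar in the projection neurons and GABAergic nuclei of the AON library, at 215 CPM and 235 CPM.

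Of the 10 binding proteins, 8 were measured between AON and pPCx projection neurons, and 2 were at least 2-fold higher in the AON and 0 lower (the same background): Stac, an adaptor of L-type channels (92.2 CPM against 25.3 CPM), and Cabp1, a calcium sensor that binds the pores (159 CPM against 65.7 CPM). The deepest AON nucleus held 119 of the 178 Cabp1 UMIs and 0 of the 103 Stac UMIs, and without it Cabp1 stood at 70.0 CPM, a log2 ratio of 0.10. Within the AON library 5 of 9 measured were at least 2-fold higher in projection neurons than in GABAergic nuclei (background 16.5%) and 1 lower (16.8%). Among them Rims1, which tethers P/Q-type and N-type channels at release sites, was 52.8-fold higher (43.7 to 64.2). The active zone genes Erc2 and Rims2 were 5.17-fold and 3.03-fold higher. The lower one was Stac2, at 4.47 CPM against 44.8 CPM. In pPCx projection neurons against the same GABAergic nuclei 3 of 8 were higher and 2 lower, and of the other subunits 2 of 8 were higher and 2 lower, against a background of 19.6% and 14.8%. The counts of the other subunits were near that share.

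The pPCx projection neurons were not uniform in these genes. In 37 of the 59 the transcription factor gene Ebf1 and the contactin gene Cntn6 summed to at least 1000 CPM, and in the other 22 they did not. The values fell apart at that limit, with no nucleus between 100.4 CPM and 1433 CPM. Cacna1e was 1303 CPM in the high group, with a median over nuclei of 1340 CPM (0 to 2323), and 694 CPM in the low group, with a median of 745 CPM (196 to 2042), a log2 difference of 0.91 (0.78 to 1.04). Cacna2d3 was 159 CPM in the high group, with a median of 135 CPM (0 to 469), and 571 CPM in the low group, with a median of 483 CPM (0 to 1135), a log2 difference of -1.84 (-2.08 to -1.61). The groups overlapped in both genes, and both are of 1 library, so this difference has no replicate.

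Cacna1h had 0 UMIs in the 37 high nuclei, which allows up to 2.30 CPM and a share of up to 8.11% of nuclei with a UMI, and 28 UMIs in 8 of the 22 low nuclei (27.3 CPM). That limit concerns nuclei with a UMI and not nuclei that express the gene. The level in the low group was 11.9-fold that of 3 UMIs over the high group, and the exact 95% interval of the ratio began at 9.03-fold. The median depth was 31440 UMIs in the high and 41131.5 UMIs in the low group. Set against each group in turn, AON projection neurons had 6.74-fold less Cacna1e than the high group and 3.59-fold less than the low group. Their Cacna2d3 was 4.94-fold that of the high group and 1.37-fold that of the low group (1.24 to 1.53). Their Cacna1h was 30.4 CPM against 27.3 CPM in the low group (ratio 1.11, interval 0.655 to 1.91). The deepest AON nucleus held 380 of the 876 Cacna2d3 UMIs and 15 of the 34 Cacna1h UMIs. These ratios to each group were not recomputed without it. Cacna1c was below both pPCx groups, 2.19-fold and 1.93-fold.

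**Figure D5:**
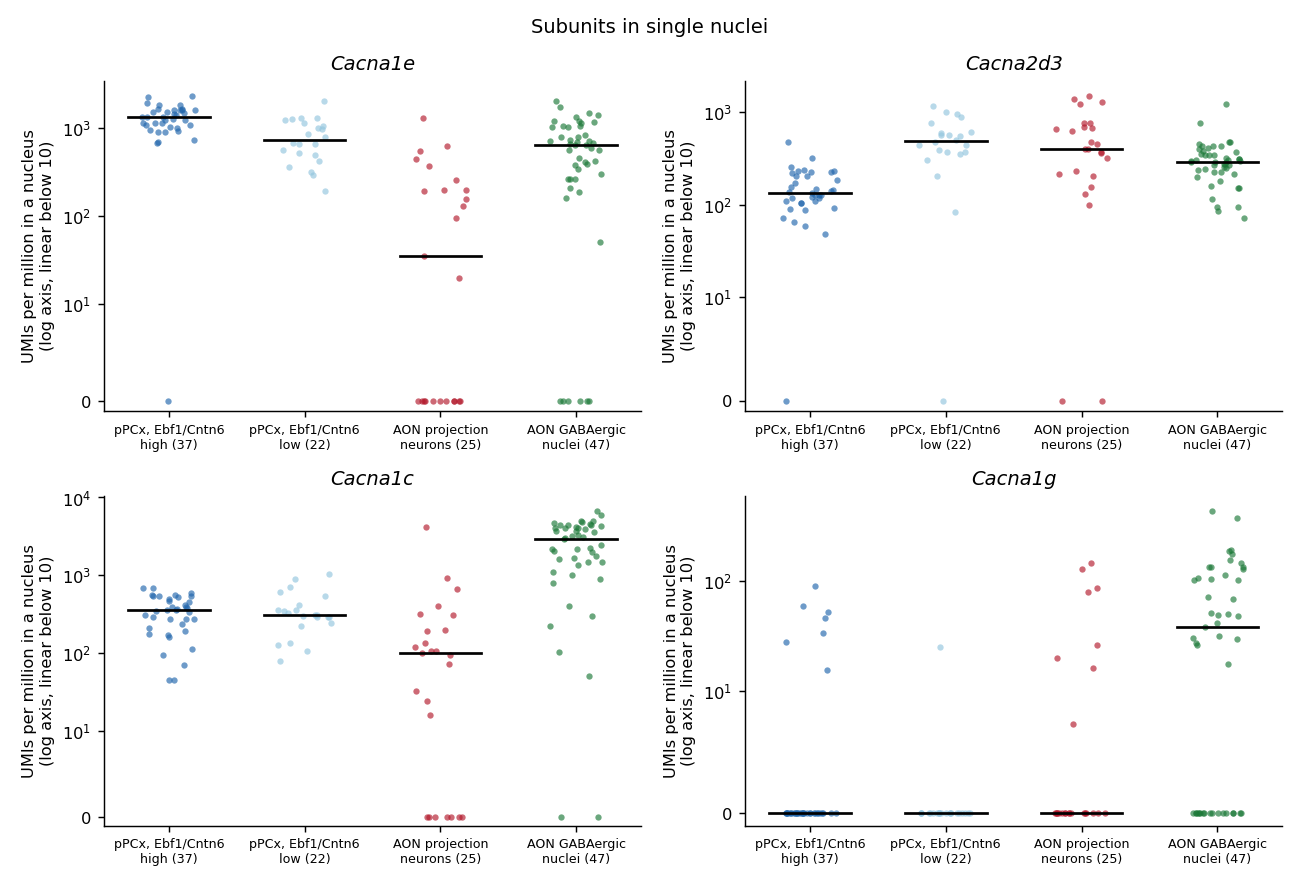
CPM of 4 members in single nuclei, for pPCx projection neurons high and low in Ebf1 and Cntn6, AON projection neurons and AON GABAergic nuclei, on an axis that is logarithmic above 10 and linear below. Each point is 1 nucleus and each bar a median. For Cacna1e the medians are 1340, 745, 34.7 and 639 CPM, and for Cacna2d3 they are 135, 483, 400 and 290 CPM.

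Among AON projection neurons, the nuclei with a Cacna1g UMI were deep ones that also held other genes of the T1 tufted cell list. The study assigned Cacna1g to that list on other libraries of this tissue. All 8 nuclei with a Cacna1g UMI had a UMI of another gene of that list, and so did 7 of the 17 without one. The nuclei with a Cacna1g UMI had a median depth of 55192.5 UMIs, the shallowest of them 38129, and those without one 10664. The overlap with the list therefore cannot be told apart from depth, and the part of depth was not tested. In the pPCx library 13 of the 59 projection neurons had a UMI of another gene of that list. The 10 AON projection neurons with no UMI of the list had a median depth of 5952 UMIs, against 55403 in the other 15. These 10 held 0 UMIs of the T-type genes. The intervals of the other 15 over these 10 began at 0.758 for Cacna1g, 0.897 for Cacna1h and 0.148 for Cacna1i, and so included equality. Cacna2d1 stood at 96.0 CPM (10 UMIs) in the 10, against 661 CPM (670 UMIs) in the other 15. The part of depth in this difference was not tested. Cacna1c went the other way, at 393 CPM in the 10 and 144 CPM in the 15 (2.73-fold, 1.88 to 3.88). Of the 41 Cacna1c UMIs in the 10, 22 lay in the shallow nucleus with 4137 CPM described above, called on 2 excitatory marker UMIs. The ratio without that nucleus was not computed.

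For the members that differed 2-fold or more between the AON and pPCx projection neurons, the genes with the most similar profile over 5 groups (both classes of projection neurons, AON GABAergic, astrocyte-marker and oligodendrocyte-marker nuclei) were taken from 9624 genes by Euclidean distance of centered log2 values. The nearest to Cacna1e were Cpne4, Myo16 and Ppp4r4 (distances 1.09, 1.21 and 1.34), and to Cacna1c they were Zfp804b, Cntnap4 and C79798 (0.90, 1.10 and 1.16). The nearest to Cacna2d3 were Irs1, CT025584.1 and Esyt2 (0.39, 0.42 and 0.42). Cacna1g was nearest to C230057M02Rik, Mef2c and Sgk1 (0.33, 0.71 and 0.74), Cacna1h to Nr4a1, Mef2c and Sgk1 (0.43, 0.47 and 0.57) and Cacna1i to Nhsl2, Kcnh3 and Kank3 (0.54, 0.64 and 0.74). The 5 groups share 2 libraries, and the order is a description.

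Where the members lie bears on how their reads can be told apart. In GENCODE M21 (GRCm38) Cacna1e spans 493.771 kb at chr1:154390731-154884501 on the minus strand, Cacna1c 609.179 kb at chr6:118587240-119196418 on the minus strand, Cacna2d3 816.922 kb at chr14:28904943-29721864 on the minus strand, and Cacna1a 251.807 kb at chr8:84388440-84640246 on the plus strand. The T-type genes are shorter, with 65.808 kb for Cacna1g at chr11:94408391-94474198 (minus), 59.499 kb for Cacna1h at chr17:25374285-25433783 (minus) and 111.042 kb for Cacna1i at chr15:80287238-80398279 (plus). Cacna1b lies at chr2:24603887-24763152 (minus), Cacna1d at chr14:30039939-30491455 (minus) and Cacna2d1 at chr5:15934691-16374511 (plus). No member overlaps another gene on its own strand. On the opposite strand the overlapping gene with the most UMIs was Gm16183 at Cacna1a (461 UMIs), Dcp1b at Cacna1c (295 UMIs) and Dcp1a at Cacna1d (205 UMIs). Cacna1b, Cacna1e, Cacna1g and Cacna1i overlap none.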

How the data were processed

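Nuclei of adult mouse olfactory bulb were sorted for the reporter and a DNA dye and made into 10x 3′ libraries, 1 per injection site. The deposited tables hold raw UMI counts for each gene in each nucleus, which the authors obtained with Cell Ranger. The genome build and whether strand or introns were used in counting are not given in the sources used here, and the build names in the submitters' processing notes are human while the gene identifiers are mouse. The paper's methods describe the pPCx library, from a single female, and not the AON library. Of 31053 gene identifiers, 31011 were found in GENCODE M21. No doublet caller was run, since the nuclei are few.

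UMIs were summed over the nuclei of a class and scaled to CPM. Log2 ratios carried 0.5 UMI on each sum. Ratios have exact conditional binomial intervals, sums exact Poisson intervals and shares exact Clopper-Pearson ones, all at 95%. They cover counting error only. A sum of 0 was given a floor of 3 UMIs, a share of 0 a limit of 3 nuclei of the total, and shares were also given as their expectation after thinning to 5000 UMIs. Library totals were 2963064 UMIs (AON) and 2412067 UMIs (pPCx). With 1 library per group no test was run, and a difference was counted by size, at least 10 UMIs and 2-fold. All 10 members were named, the other subunits when they had at least 10 UMIs in a comparison, and the 3 nearest genes for members with a 2-fold difference between sites. The members, lists and limits were chosen with earlier results of these data known. The functions were tested on simulated data (Python 3.11.15, numpy 2.4.6, scipy 1.17.1). The reported settings were varied in 13 ways besides the thinning depth, 2 of them chosen after seeing the data. The table of promoters is from RefSeq (GRCm38.p6). One marker of GABAergic nuclei is not reported here.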

Additional observations from a re-analysis of the deposited data

Results flagged for a closer look

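Cacna1e and Cacna2d1 stood on opposite sides of the GABAergic nuclei in the 2 libraries. For Cacna1e the log2 ratio of projection neurons over GABAergic nuclei of the same library was -1.88 in the AON and 1.90 in the pPCx, and for Cacna2d1 it was -1.37 and 2.58. The pPCx ratios rest on 2 GABAergic nuclei with 16 UMIs of Cacna1e and 9 UMIs of Cacna2d1, and the difference between the libraries was not tested.

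Barcodes with fewer than 1000 genes, which no comparison used, also carried these genes. In the AON library 86 such barcodes held 439 UMIs of the members in 58 of them, 4637 CPM (4214 to 5092), with 174 UMIs of Cacna1a and 83 of Cacna1c. In the pPCx library 11 such barcodes held 30 UMIs, 2808 CPM (1895 to 4009).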

How the results depend on the processing

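Each ratio of a member was recomputed under the 11 of 13 settings that bear on it. Of 550 such values, 473 stayed within the counting interval, 74 left it in the same direction and 3 reversed. All 3 concerned AON projection neurons over remaining nuclei: with at least 10 GABAergic marker UMIs required, which moves nuclei of weak GABAergic signal into the remaining class, Cacna1c went to -1.03 and Cacna1e to -0.0012, and with equal weights Cacna1h went to -0.20.
Between AON and pPCx projection neurons, the count of higher members fell from 4 to 2 with equal weights, with at least 50 UMIs required and without the deepest AON nucleus, and the count of lower members fell from 2 to 1 with equal weights and with all deposited nuclei. For pPCx projection neurons over GABAergic nuclei, equal weights gave 1 higher member in place of 2 and a median of -0.70, and median-ratio scaling, which shifted all log2 ratios by 0.16, gave a median of -0.76 in place of -0.92.
Over the remaining nuclei, the AON median of 1.82 became 1.45 with all deposited nuclei, 0.56 with 10 GABAergic UMIs, 1.23 with equal weights, 1.43 without nuclei over 3 times the median depth and 1.49 without the deepest nucleus, and with 10 GABAergic UMIs 3 members were higher in place of 6 and 2 lower in place of 0. The pPCx median of 1.84 became 0.93 with all deposited nuclei, 1.37 under the stricter projection neuron rule, 0.62 with 10 GABAergic UMIs, 0.83 with equal weights and 2.55 at 8000 or more UMIs, and the count of lower members went from 1 to 2 with all deposited nuclei, to 2 with 10 GABAergic UMIs and to 0 with 50 UMIs. The cause of these changes was not tested. Median-ratio scaling shifted the remaining-nuclei comparisons by 0.46 (AON) and 0.53 (pPCx). Leaving out projection neurons with more glial than excitatory marker UMIs, a setting chosen after seeing the data like that without the deepest nucleus, moved no count by over 1.5 times. Thinning to 10000 UMIs moved 14 of 40 shares beyond their interval. No paired analysis was possible because there is 1 library per injection site and no replicate number to pair on. Depth limits the T-type genes most, with 4 to 34 UMIs in the projection neuron classes.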
